A study of Homo sapiens with 24 samples.

Results

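TXNIP, the arrestin-domain genes ARRDC4, ARRDC2 and ARRDC3, and the genes of the glucose-sensing transcription factors MondoA (MLXIP) and ChREBP (MLXIPL) with their shared partner MLX were followed in 3 estrogen receptor-positive breast cancer cell lines grown in low or high glucose. The 7 genes were taken by symbol from the 18889 genes of the deposited table, and each had 1 row. TXNIP rose with glucose in all 3 lines, and its rise differed from line to line, whereas ARRDC4 rose in MDA-MB-175 and ZR-75-30 with no detectable difference between lines. ARRDC3 fell in MDA-MB-175 and, by a call lost in 8 of 18 alternative runs, in ZR-75-30. MLX rose in the same lines, MLXIPL rose in ZR-75-30, and no change of MLXIP passed the test in any line. When 1 HCC1500 high glucose culture that stood apart (replicate 3) was left out, ARRDC4, ARRDC2 and MLX also rose and MLXIPL fell in HCC1500.

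The human breast carcinoma lines were HCC1500, MDA-MB-175 and ZR-75-30, established lines with no introduced allele. After conditioning in low-glucose medium, each was cultured serum-free for 48 hours at a glucose concentration of 5 mM (called low, and used as the control) or of 25 mM (called high, as a model of hyperglycemia), with 4 cultures in each of the 6 groups. The question was how high glucose changes gene expression in these cells. No sample is labelled as an osmotic control, so glucose concentration and osmolarity cannot be told apart, and nothing in the labels says whether the 4 flasks of a group were set up on separate days, so p-values measure the spread between these flasks. Values are normalized read counts as deposited, and each is a whole number of reads multiplied by 1 factor per sample.

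TXNIP encodes an α-arrestin that binds thioredoxin and promotes endocytosis of glucose transporters, and its transcription is among the best known responses to intracellular glucose. MondoA and ChREBP bind DNA as heterodimers with MLX at carbohydrate response elements, pairs of E-box-like sites, after glucose 6-phosphate has accumulated, and TXNIP and ARRDC4 are classical targets of MondoA. The related α-arrestins ARRDC2 and ARRDC3 are adaptors of ubiquitin ligases at the membrane, and ChREBP is best known for driving lipogenic genes in liver and fat.

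The bases upstream of TXNIP, ARRDC4 and MLX are shown because they hold a full pair of arms or an E-box, which the windows of the other 4 members did not. The 250 bases before the outermost start were read from RefSeq promoter windows (build GRCh38.p14), which matched all 7 genes. The search was for 2 arms, each CACGNG or CNCGTG (the same letters on the other strand), separated by 5 bases, and for the E-box CACGTG, which reads alike on both strands and also counts as an arm. Capitals mark the arms of the pair in TXNIP and the E-box in ARRDC4 and MLX.
TXNIP, chr1:145996580-145996829, minus strand: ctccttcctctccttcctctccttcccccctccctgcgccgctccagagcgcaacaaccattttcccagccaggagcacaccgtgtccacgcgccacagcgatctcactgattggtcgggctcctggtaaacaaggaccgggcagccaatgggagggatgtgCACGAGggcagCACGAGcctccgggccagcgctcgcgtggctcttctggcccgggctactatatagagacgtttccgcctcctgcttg
ARRDC4, chr15:97960453-97960702, plus strand: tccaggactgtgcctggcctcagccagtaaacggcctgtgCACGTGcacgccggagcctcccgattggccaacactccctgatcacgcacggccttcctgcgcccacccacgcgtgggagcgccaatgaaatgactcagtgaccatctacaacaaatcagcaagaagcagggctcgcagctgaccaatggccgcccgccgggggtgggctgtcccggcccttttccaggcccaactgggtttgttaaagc
MLX, chr17:42566850-42567099, plus strand: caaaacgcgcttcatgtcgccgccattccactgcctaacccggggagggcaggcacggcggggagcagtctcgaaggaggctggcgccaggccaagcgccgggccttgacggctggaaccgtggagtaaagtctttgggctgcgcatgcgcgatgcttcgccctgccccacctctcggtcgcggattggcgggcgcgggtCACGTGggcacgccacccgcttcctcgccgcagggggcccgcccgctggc
The TXNIP pair covers bases -88 to -72 counted from the start, and such a pair stood in 23 of 35116 windows of the same length (0.0655%). The E-box of ARRDC4 covers bases -210 to -205 and that of MLX bases -50 to -45, and 6.34% of windows held an E-box. These matches describe letters in a window, and none was tested for binding.

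On GRCh37, the build the study's methods give (hg19; the submitters' processing notes name hg38), TXNIP lies on chromosome 1 from 145438490 to 145442635 and ARRDC4 on chromosome 15 from 98503933 to 98517063, both on the plus strand. The builds place TXNIP on opposite strands, since its GRCh38.p14 window above is on the minus strand. ARRDC2 lies on chromosome 19 from 18111941 to 18124911 (plus), ARRDC3 on chromosome 5 from 90664448 to 90679134 (minus), MLXIP on chromosome 12 from 122516628 to 122631894 (plus), MLXIPL on chromosome 7 from 73007524 to 73038873 (minus), and MLX on chromosome 17 from 40719090 to 40725257 (plus). Exons of MLX share 775 of 4255 bases with PSMC3IP on the opposite strand, those of ARRDC3 share 145 of 4985 bases with ARRDC3-AS1, and those of ARRDC2 share 442 of 4637 bases with an unnamed gene. Whether reads were counted by strand is not given in the sources used here, so reads in these stretches cannot be assigned with certainty.

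The samples held 9140024 to 17998819 recovered reads, and 1 read was worth 0.318 to 0.763 normalized read counts. The luminal markers had rows for 7 of 7 genes and summed to 24006 to 58041 per sample, whereas the basal keratins KRT5 and KRT14 and the leukocyte genes PTPRC and CD3E were not analysed here. In ZR-75-30 the luminal sum was 48985 to 53630 at low and 34885 to 40744 at high glucose, and the leukocyte list's measured gene, CD68, a lysosomal gene that is not restricted to leukocytes, went from 4.58 to 6.82 up to 33.6 to 43.9; their part in the results was not tested. HCC1500 high glucose replicate 3 stood apart: 23.9% of its genes deviated by over 1 log2 unit from its group, where no other sample exceeded 1.74%, its values summed to 7319781 against 5559394 to 5716906 in the other 7 HCC1500 samples, and across 13125 genes its deviation had a Spearman correlation of -0.54 with exon length, a description across genes. Of the 7, MLXIP has the longest exon sequence (13905 bases) and lay 1.05 log2 units below the other 3 cultures in this sample, while ARRDC2, MLXIPL and MLX lay 0.99, 0.93 and 0.68 above them. TXNIP and ARRDC4, the shortest at 3594 and 4062 bases, lay 0.12 and 0.07 above, and ARRDC3 (4985 bases) lay 0.36 below. HCC1500 changes from low to high glucose are therefore given with and without this culture.

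High and low glucose cultures were separate for TXNIP throughout. Its MDA-MB-175 values were 2005, 1928, 1880.1 and 1941 in the 4 low glucose cultures and 2574, 2518, 2477 and 2591 in the 4 high glucose cultures. In ZR-75-30 they were 648, 606, 603 and 605 at low and 1077, 1058, 1025 and 1019.8 at high glucose. In HCC1500 they were 2475, 2615, 2608 and 2525 at low and 5084, 5080.0, 5509.8 and 5081 at high glucose. Every high glucose culture lay above every low glucose culture of its line. In HCC1500 the 3 high glucose cultures other than replicate 3 had an SD of 1.86. They rest on 8617, 10211 and 11008 reads, so this SD is below counting noise and is no measure of precision. A gene with all its high glucose cultures above was found for 12.7% of those tested in MDA-MB-175 cells, for 20.9% in ZR-75-30 cells and for 13.7% in HCC1500 cells (21% without replicate 3).

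TXNIP rose by 31.0% in MDA-MB-175 cells, by 69.8% in ZR-75-30 cells and by 103% in HCC1500 cells (98.8% without replicate 3). On the log2(value + 1) scale the rise was 0.39 ± 0.04 (SE, n = 4 per group, limma adjusted p = 1.08e-06), 0.76 ± 0.04 (adjusted p = 3.61e-11) and 1.02 ± 0.07 (adjusted p = 7.45e-05; without replicate 3, 0.99 ± 0.03, adjusted p = 1.55e-15). The difference between lines was itself tested in a model of all 24 samples. The rise was larger in ZR-75-30 than in MDA-MB-175 by 0.37 log2 units (95% interval 0.25 to 0.50; adjusted p = 0.000206), larger in HCC1500 than in MDA-MB-175 by 0.63 (0.51 to 0.76; adjusted p = 1.24e-07) and larger in HCC1500 than in ZR-75-30 by 0.26 (0.13 to 0.38; adjusted p = 0.00274). Leaving out replicate 3 gave 0.60 and 0.23 for the differences that involve HCC1500 (adjusted p = 1.85e-10 and 0.000144). A response difference was called in 11.2%, 17.7% and 25.2% of all genes in the 3 pairs of lines, and in 29.3% by the test over all 3 lines. By size, TXNIP was the 1992nd of 7890 genes with a positive change in MDA-MB-175, the 1289th of 8131 in ZR-75-30 and the 461st of 7217 in HCC1500.

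**Figure D1:**
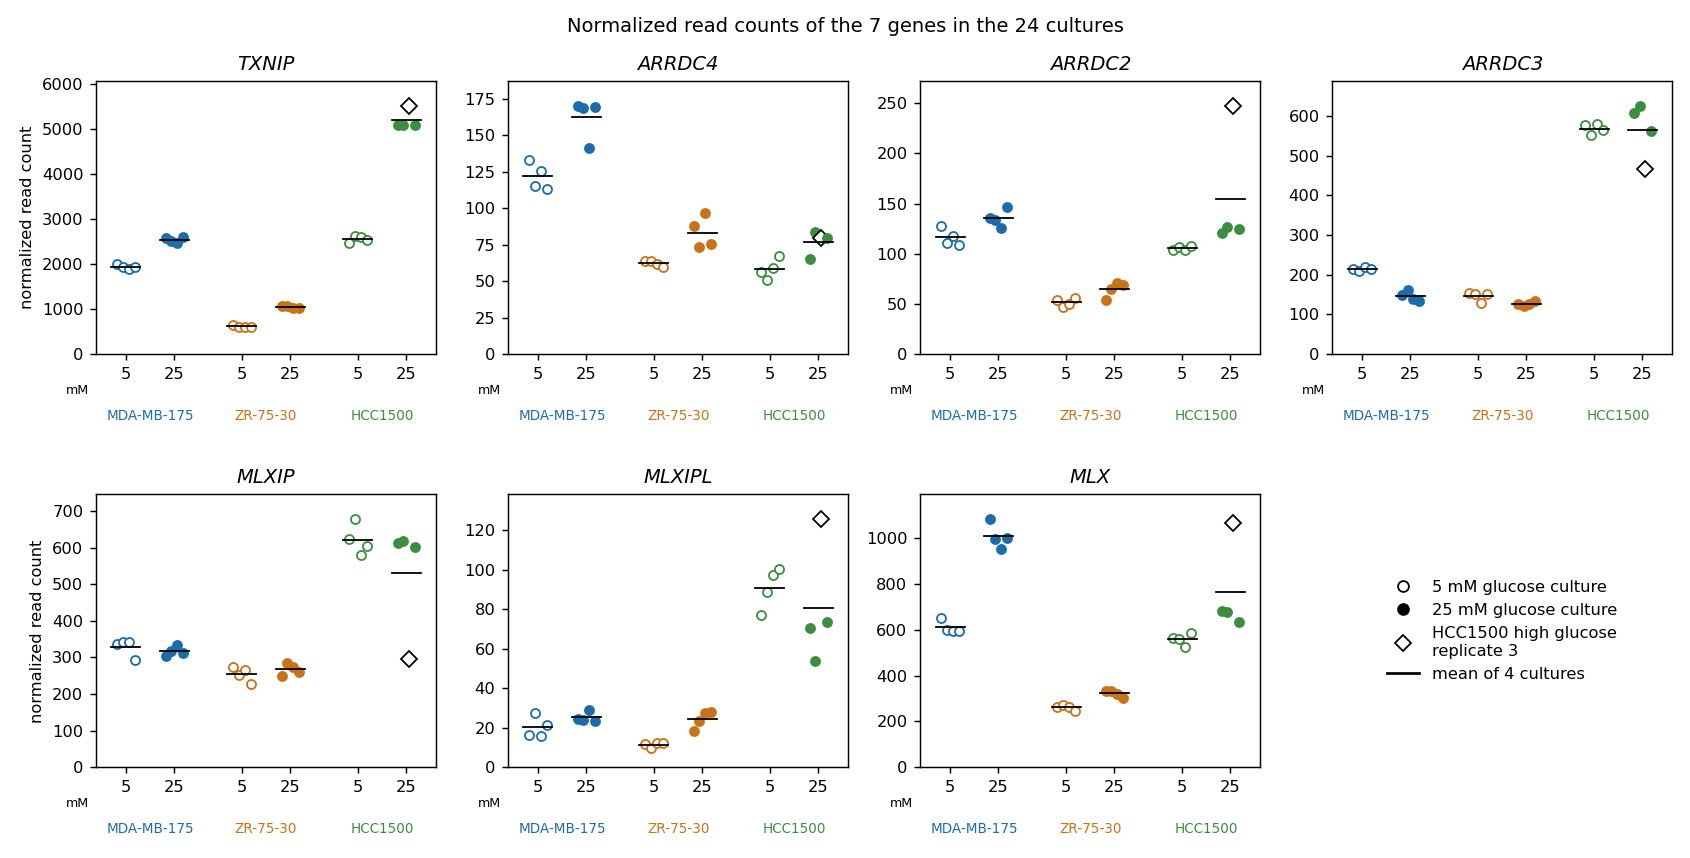
Normalized read counts (linear axis from 0) of the 7 genes in each of the 24 cultures, by cell line and glucose concentration; open and filled circles are low and high glucose cultures, the open diamond is HCC1500 high glucose replicate 3, and bars are means of 4. TXNIP is separated by glucose in every line, and the diamond lies at 247 for ARRDC2, 295 for MLXIP, 125 for MLXIPL and 1065 for MLX, away from the other 3 cultures of its group.

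ARRDC4, the closest relative of TXNIP among glucose-responsive α-arrestins, was expressed at far lower values. It measured 133, 115, 126 and 113 at low and 170.2, 169, 141 and 169 at high glucose in MDA-MB-175. In ZR-75-30 it measured 63.7, 63.7, 62.1 and 59.5 at low and 87.5, 73.6, 96.9 and 75.4 at high glucose. The groups did not overlap in either line, as for 12.7% of genes tested in MDA-MB-175 and 20.9% in ZR-75-30 in this direction. In HCC1500 it measured 56.2, 50.8, 59.1 and 67.6 at low and 64.9, 83.6, 79.5 and 79.9 at high glucose, where the lowest high glucose culture lay below the highest low glucose culture. These values rest on 78 to 409 reads per sample.

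The rise of ARRDC4 was 33.3% in MDA-MB-175 (log2 change 0.41 ± 0.08 SE, limma adjusted p = 0.00144) and 33.9% in ZR-75-30 (0.41 ± 0.11; adjusted p = 0.00467). In HCC1500 the change of 0.39 ± 0.13 missed the threshold (adjusted p = 0.0704), and without replicate 3 it was 0.37 ± 0.12 and passed (adjusted p = 0.01). The 3 pairwise differences in response were between -0.02 and 0.00 log2 units, none past the test. Their 95% intervals ran from -0.31 to 0.30 for ZR-75-30 against MDA-MB-175, from -0.33 to 0.29 for HCC1500 against MDA-MB-175 and from -0.32 to 0.29 for HCC1500 against ZR-75-30. Differences within these intervals were not detectable with 4 cultures per group.

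ARRDC2 rose in ZR-75-30, while ARRDC3 fell in 2 of the lines. ARRDC2 measured 54.3, 47.2, 50.1 and 55.7 at low and 54.2, 64.8, 70.5 and 69.2 at high glucose in ZR-75-30, so the groups overlapped through high glucose replicate 1 (log2 change 0.31 ± 0.12 SE, limma adjusted p = 0.0422). In MDA-MB-175 it measured 128, 111, 118 and 109 at low and 135, 134, 126 and 146 at high glucose, a change of 0.22 ± 0.08 just short of the threshold (adjusted p = 0.0515). In HCC1500 it measured 104, 106, 104 and 108 at low and 120.3, 127, 247 and 125 at high glucose. The groups of HCC1500 did not overlap, but replicate 3 widened the spread, and the change went from 0.48 ± 0.22 (adjusted p = 0.167) to 0.23 ± 0.07 without it (adjusted p = 0.00752). Groups apart upwards were seen in 13.7% of genes tested in HCC1500, and in 21% without replicate 3. The call in ZR-75-30 was lost in 9 of 18 alternatives, with adjusted p from 0.0143 to 0.15 over them, among them leaving out any 1 of low glucose replicates 1, 2 or 3 or of high glucose replicates 2, 3 or 4 (0.27 to 0.33 log2 units).

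ARRDC3, a suppressor of growth signaling that promotes degradation of β-adrenergic receptors and integrin β4, went the other way in MDA-MB-175, from 216, 209, 219 and 214 to 149, 161, 140.2 and 134. The groups lay apart, and the fall was 0.55 ± 0.07 on the log2 scale (limma adjusted p = 1.72e-05); groups apart in this direction were seen in 13.9% of genes tested. In ZR-75-30 it measured 154, 151, 128 and 152 at low and 126, 122, 127 and 134 at high glucose, with low glucose replicate 3 inside the high glucose range (log2 change -0.20 ± 0.08, adjusted p = 0.0447, from 0.011 to 0.121 over the alternatives, 8 of which lost the call, 6 of them by leaving out 1 culture, low glucose replicate 1, 2 or 4 or high glucose replicate 1, 2 or 3; 21.1% of genes tested in this line had groups apart downwards). In HCC1500, where it was highest, it measured 577, 551, 579 and 564 at low and 608, 626, 466 and 563 at high glucose. The change there was -0.01 ± 0.10 (adjusted p = 0.942), or 0.08 ± 0.04 without replicate 3 (adjusted p = 0.117). The response of ARRDC3 differed between HCC1500 and MDA-MB-175 by 0.54 log2 units (95% interval 0.30 to 0.78; adjusted p = 0.0017) and between ZR-75-30 and MDA-MB-175 by 0.36 (0.12 to 0.59; adjusted p = 0.0461). The latter call was lost in 23 of 33 alternatives, with median-of-ratios and CPM rescaling, edgeR and DESeq2 among them (adjusted p from 0.00255 to 0.225). Between HCC1500 and ZR-75-30 it was 0.19 apart (adjusted p = 0.263), and without replicate 3 it was 0.28 apart (adjusted p = 0.0137).

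MLXIP, the gene of MondoA, was not called in any line. It measured 336, 342, 342 and 292 at low and 305, 319, 335 and 312 at high glucose in MDA-MB-175 (log2 change -0.04 ± 0.06 SE, 95% interval -0.17 to 0.08, limma adjusted p = 0.643). In ZR-75-30 it measured 274, 252, 266 and 227 at low and 249, 285, 275 and 260.4 at high glucose (0.07 ± 0.07, -0.07 to 0.21; adjusted p = 0.399). The groups overlapped in these lines. In HCC1500 it measured 622, 677, 581 and 605 at low and 611, 618, 295 and 602 at high glucose. Replicate 3 alone lay outside the low glucose range downwards, and the change was -0.28 ± 0.23 with it (adjusted p = 0.433) and -0.02 ± 0.05 without it (-0.12 to 0.07; adjusted p = 0.682).

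MLXIPL, the gene of ChREBP, had the lowest values of the 7 in MDA-MB-175 and ZR-75-30, where it rested on 16 to 74 reads per sample. In ZR-75-30 it went from 11.6, 9.67, 12.5 and 12.2 to 18.2, 23.6, 27.6 and 28.1, a 112% rise with groups apart (log2 change 1.01 ± 0.21 SE, limma adjusted p = 0.000558). Groups apart upwards were seen in 20.9% of genes tested in ZR-75-30. In MDA-MB-175 it measured 16.5, 27.5, 15.9 and 21.4 at low and 24.5, 23.9, 28.9 and 23.7 at high glucose, and the change of 0.33 ± 0.19 did not pass (adjusted p = 0.221). In HCC1500 it measured 76.8, 88.6, 97.0 and 100.3 at low and 70.2, 53.7, 125 and 73.4 at high glucose. With all cultures the HCC1500 change was -0.23 ± 0.24 (adjusted p = 0.554). Without replicate 3 every high glucose culture lay below every low glucose culture, as for 37.1% of genes tested in that comparison, and MLXIPL fell by 0.46 ± 0.12 (adjusted p = 0.00223). The responses of HCC1500 and ZR-75-30 differed by -1.24 log2 units (95% interval -1.84 to -0.63; adjusted p = 0.00285), and by -1.47 without replicate 3 (adjusted p = 3.06e-05). ZR-75-30 minus MDA-MB-175 was 0.68 (adjusted p = 0.154), called only when replicate 3 was left out (adjusted p = 0.0345). HCC1500 minus MDA-MB-175 was -0.56 (adjusted p = 0.211), and -0.79 without replicate 3 (adjusted p = 0.0146).

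MLX, the shared DNA-binding partner, had the largest change of the 7 genes in MDA-MB-175, from 653, 600.3, 593 and 594 to 1081, 996, 950.2 and 999.96. The rise was 65.1% (log2 change 0.72 ± 0.05 SE, limma adjusted p = 2.28e-08), the 719th of the 7890 positive changes in that line. In ZR-75-30 it went from 265, 273, 264 and 247 to 332, 335, 321 and 304, a rise of 23.3% (0.30 ± 0.05; adjusted p = 0.000158). In HCC1500 it measured 562, 559, 526 and 585 at low and 679.6, 677, 1065 and 632 at high glucose. The groups lay apart in all 3 lines. The HCC1500 change of 0.42 ± 0.16 missed the threshold (adjusted p = 0.0989) and was 0.25 ± 0.04 without replicate 3 (adjusted p = 4.84e-05). The test of any response difference between the lines gave an adjusted p of 0.079 with all samples, and of 3.63e-06 without replicate 3, when MDA-MB-175 exceeded ZR-75-30 by 0.42 and HCC1500 by 0.47 log2 units (adjusted p = 3.44e-05 and 8.35e-06).

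**Figure D2:**
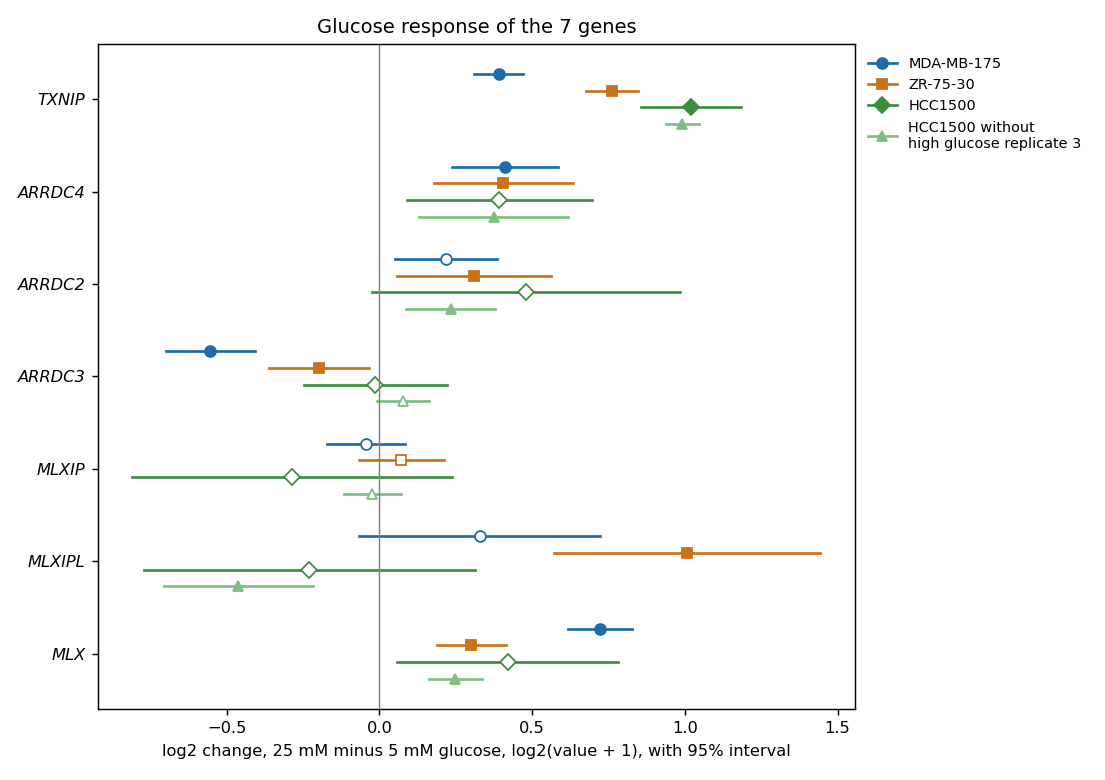
Log2 change of each gene from 5 to 25 mM glucose, on the log2(value + 1) scale, with its 95% interval from limma, in the 3 lines and in HCC1500 without high glucose replicate 3; filled symbols have an adjusted p under 0.05. TXNIP moves from 0.39 to 0.76 to 1.02 across the lines, ARRDC4 lies at 0.39 to 0.41 in each, and the HCC1500 intervals of ARRDC2, MLXIP, MLXIPL and MLX narrow when replicate 3 is left out.

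Counted together, 3 of the 7 genes rose and 1 fell in MDA-MB-175, where 25.7% of all genes tested were called (11.9% higher and 13.7% lower, as 2030 and 2338 genes, against 2339 and 2069 after median-of-ratios rescaling). In ZR-75-30 5 rose and 1 fell, with 46% called (23.4% higher and 22.7% lower). In HCC1500 1 rose, with 20.5% called (7.46% higher and 13% lower, as 1221 and 2129 genes, against 1726 and 1802 after median-of-ratios rescaling). Without replicate 3, 4 of the 7 rose and 1 fell, with 58.5% called (20.9% higher and 37.7% lower). The median log2 change of the 7 was 0.33, 0.31 and 0.39 in the 3 lines, beside -0.02, 0.01 and -0.06 over all genes tested. All 7 passed the filter on low values in each line.

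**Figure D3:**
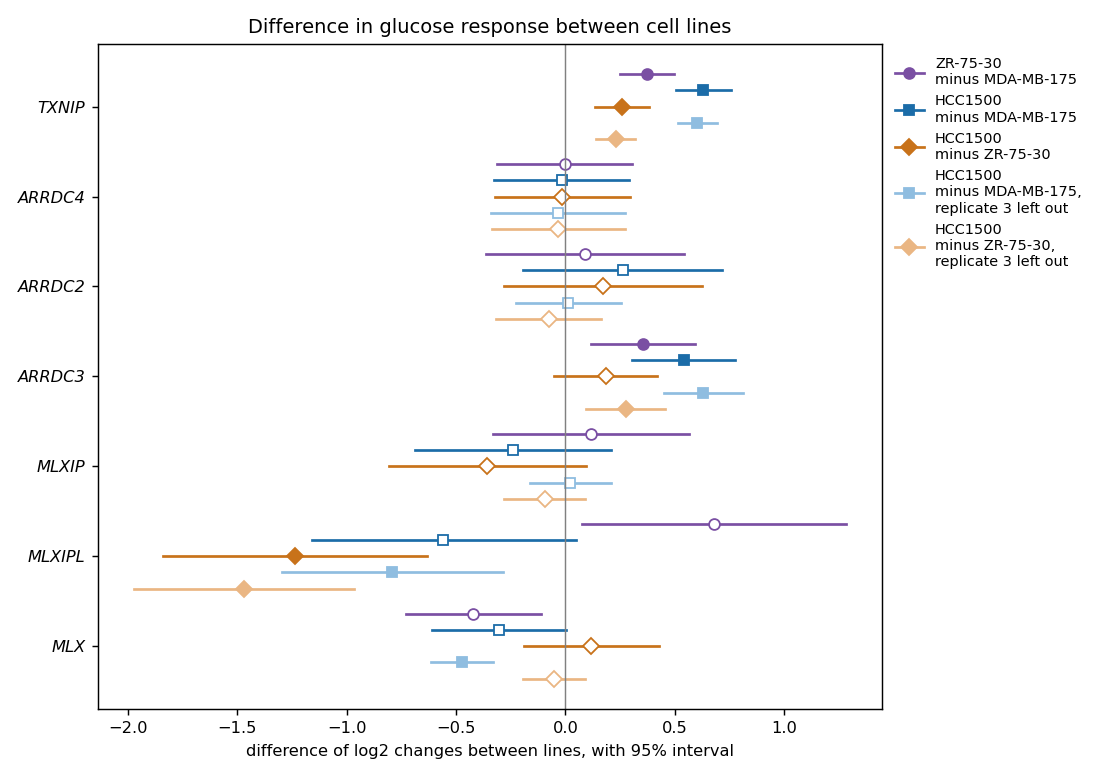
Difference of the log2 glucose response between pairs of lines for each gene, with its 95% interval from the model of 24 samples, and again for the pairs with HCC1500 after leaving out high glucose replicate 3; filled symbols have an adjusted p under 0.05. All 3 TXNIP differences are filled, those of ARRDC4 lie between -0.02 and 0.00 with all samples, and MLXIPL is at -1.24 for HCC1500 minus ZR-75-30.

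The lines also differed in how much of each gene they expressed. TXNIP was highest in HCC1500, then MDA-MB-175, then ZR-75-30, at either glucose concentration. At low glucose HCC1500 exceeded MDA-MB-175 by 0.40 log2 units (1.32-fold, limma adjusted p = 1.82e-08) and ZR-75-30 by 2.05 (4.15-fold; adjusted p = 1.61e-21). At high glucose the same differences were 1.03 (2.04-fold; adjusted p = 6.45e-16) and 2.31 (4.96-fold; adjusted p = 1.77e-22). Without replicate 3 the first had a 95% interval of 0.94 to 1.07 and the second was 2.28. TXNIP in ZR-75-30 at high glucose thus stayed below the low glucose values of the other lines (highest 1077, against a lowest value of 1880.1 in MDA-MB-175 and of 2475 in HCC1500). Level differences were called for 63.8% of all genes at low and 65.8% at high glucose between ZR-75-30 and MDA-MB-175, for 72.6% and 73.5% between HCC1500 and MDA-MB-175, and for 73% and 73.7% between HCC1500 and ZR-75-30. The median gene differed by 0.23 between HCC1500 and ZR-75-30 at low glucose as deposited, by 0.11 after median-of-ratios rescaling and by 0.36 in CPM.

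ARRDC4 had another order: MDA-MB-175 was highest, by 0.96 log2 units over ZR-75-30 and by 1.05 over HCC1500 at low glucose (adjusted p = 3.5e-08 and 5.54e-09). HCC1500 and ZR-75-30, its neighbours in that order, did not differ beyond their spread as deposited, at low (-0.10; adjusted p = 0.419) or high glucose (-0.11; adjusted p = 0.35). Their order depended on the scaling: at low glucose the difference was called at -0.24 with median-of-ratios rescaling (adjusted p = 0.0395), at -0.29 with edgeR (adjusted p = 0.0269) and, with the opposite sign, at 0.23 in CPM (adjusted p = 0.0389). At high glucose edgeR called -0.27 (adjusted p = 0.0345), and CPM gave 0.19 (adjusted p = 0.0873). ARRDC2 was lowest in ZR-75-30, 1.15 below MDA-MB-175 at low glucose (adjusted p = 7.79e-07), while HCC1500 and MDA-MB-175 were not told apart (-0.14; adjusted p = 0.433). ARRDC3 was highest in HCC1500, 1.40 above MDA-MB-175 and 1.95 above ZR-75-30 at low glucose (adjusted p = 3.07e-13 and 5.74e-16). The fall in MDA-MB-175 brought it closer to ZR-75-30, from 0.55 above at low glucose (adjusted p = 2.5e-06) to 0.20 above at high glucose (adjusted p = 0.0359). The high glucose call was lost in 8 of 33 alternatives. As ZR-75-30 minus MDA-MB-175, this difference was -0.11 with median-of-ratios rescaling (adjusted p = 0.355) and -0.43 in CPM (adjusted p = 0.0024).

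MLXIP and MLXIPL were both highest in HCC1500. At low glucose MLXIP was 0.92 above MDA-MB-175 and 1.28 above ZR-75-30 (adjusted p = 1.24e-05 and 9.34e-08), and MLXIPL was 2.13 and 2.87 above them (4.38-fold and 7.32-fold; adjusted p = 3.21e-09 and 1.6e-11). At high glucose MLXIPL in HCC1500 exceeded ZR-75-30 by 1.63 (1.40 without replicate 3; adjusted p = 2.1e-07 and 1.39e-07), and ZR-75-30 and MDA-MB-175, which had differed by -0.74 at low glucose (adjusted p = 0.00317), were 0.06 apart (adjusted p = 0.817). MLX was lowest in ZR-75-30, by 1.22 against MDA-MB-175 and 1.09 against HCC1500 at low glucose (adjusted p = 6.06e-10 and 2.81e-09). MLX of HCC1500 and MDA-MB-175 differed by -0.13 at low glucose (adjusted p = 0.278) and by -0.43 at high glucose (-0.60 without replicate 3; adjusted p = 0.000832 and 8.44e-11). The low glucose difference was called in 5 of 33 alternatives. Among them were median-of-ratios rescaling (-0.19; adjusted p = 0.023) and the fit without replicate 3 (-0.13; adjusted p = 0.0152), whereas CPM gave -0.007 (adjusted p = 0.927).

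Per kb of exon, which allows genes to be set against each other, TXNIP stood above the other members in every group. Its mean ran from 171 ± 6.09 (SD, n = 4) normalized read counts per kb in ZR-75-30 at low glucose to 1444 ± 59.6 in HCC1500 at high glucose. This was 11.2 to 76.2 times the per-kb level of ARRDC4 and 2.78 to 8.05 times that of MLX (up to 9.08 without replicate 3), the second highest member in every group, with ARRDC3 nearest to it in HCC1500 at low glucose (114 ± 2.55 per kb against 131 ± 5.72 for MLX). MLX exceeded MLXIP per kb by 2.93 to 10.4 times, and MLXIP exceeded MLXIPL by 2.28 to 7.66 times, where the ratio of HCC1500 at high glucose went from 2.28 to 3.21 without replicate 3. Lengths are the union of annotated exons, 3594 bases for TXNIP and 13905 for MLXIP, so a gene that uses a short transcript is understated. In bulk RNA, fewer expressing cells and less RNA per cell cannot be told apart.

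**Figure D4:**
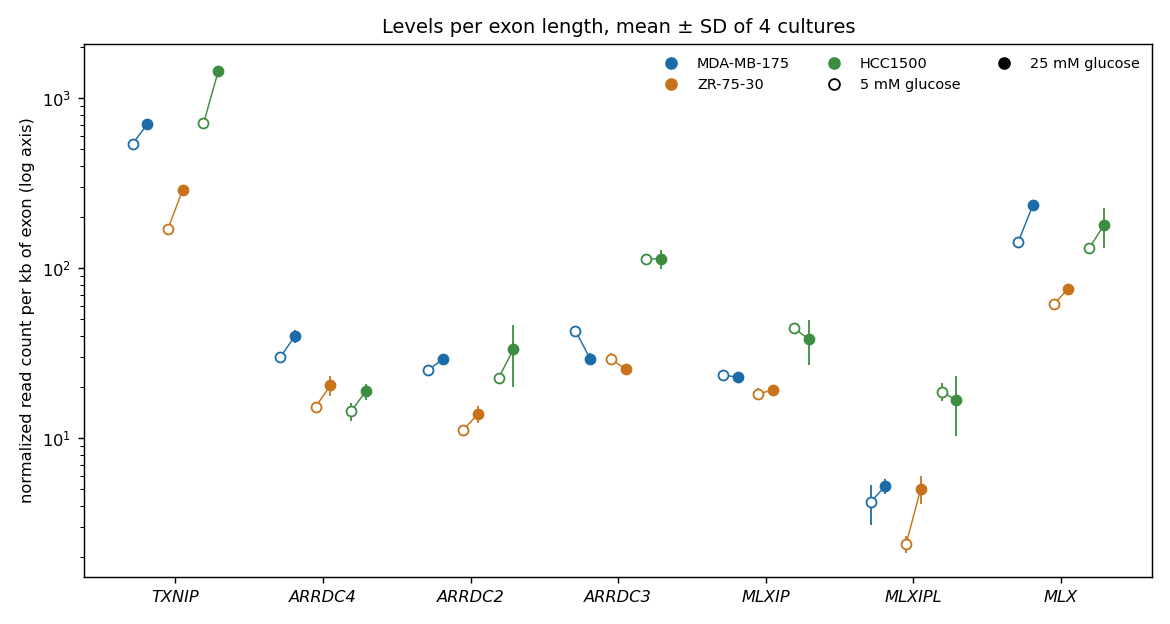
Mean ± SD of 4 cultures of the normalized read count per kb of annotated exon (log axis) for each gene, line and glucose concentration; open symbols are low and filled symbols high glucose, joined within a line. TXNIP lies above the other 6 genes in every group, and MLXIPL is lowest in every group except HCC1500 at low glucose, where it is at 18.8 per kb and ARRDC4 at 14.4.

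Genes of the surrounding pathways moved in both directions. The counts of this list and of the lists below stand beside these shares of all genes tested. In MDA-MB-175 11.9% were called higher and 13.7% lower, and in ZR-75-30 23.4% and 22.7%. In HCC1500 the shares were 7.46% and 13%, or 20.9% and 37.7% without replicate 3. Whether any list departs from these shares was not tested. Of 20 other genes listed as direct targets of ChREBP or MondoA, 15 had a row; 5 rose and 3 fell in MDA-MB-175, 2 rose and 7 fell in ZR-75-30, and 2 rose and 5 fell in HCC1500 (2 and 11 without replicate 3). Their median log2 change was 0.08, -0.16 and -0.39, beside -0.02, 0.01 and -0.06 over all genes tested. ACLY, which makes cytosolic acetyl-CoA, fell in each line, from 2411 ± 113 (SD, n = 4) to 1427 ± 33.9 in ZR-75-30 and from 5676 ± 184 to 3013 ± 384 in HCC1500 (log2 changes -0.18, -0.76 and -0.92, limma adjusted p = 0.00311, 2.55e-11 and 0.000661; -0.82 in HCC1500 without replicate 3). ACACB, the mitochondrial acetyl-CoA carboxylase, fell by 0.35, 0.60 and 1.07 (adjusted p = 0.00789, 4.68e-06 and 0.00368), the last by 0.94 without replicate 3. The MDA-MB-175 calls of ACLY and ACACB were lost in 1 fit of all 24 samples (adjusted p = 0.107 and 0.0749). KLF10, a transcription factor induced by ChREBP in liver, rose by 0.38, 0.30 and 0.69 (adjusted p = 0.000165, 0.000322 and 0.000803), the last by 0.75 without replicate 3. FASN, the fatty acid synthase, named here after its values were seen, went from 10932 ± 319 to 4985 ± 397 in HCC1500 (-1.14; adjusted p = 0.000109; -1.08 without replicate 3) and from 19383 ± 2702 to 19072 ± 1013 in MDA-MB-175 (-0.01; adjusted p = 0.926).

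In the MYC, MAX and MXD network, whose proteins share the E-box with MLX, 3 of 10 genes rose and 2 fell in MDA-MB-175, 3 rose and 4 fell in ZR-75-30, and 4 rose and 3 fell in HCC1500 (6 and 3 without replicate 3). MYCN fell in each line (log2 changes -0.69, -1.27 and -1.42; adjusted p = 0.000141, 0.00301 and 0.0263), from low values in ZR-75-30 (17.4 ± 6.29 to 6.47 ± 2.41) and HCC1500 (13.9 ± 2.14 to 5.11 ± 2.90). MXD3, an antagonist of MYC, fell as well, by 0.52, 1.21 and 1.04 (adjusted p = 0.0131, 2.44e-05 and 0.0431). The HCC1500 calls of MYCN and MXD3 were lost in 5 and 8 alternatives, each time but 1 (the replicate block, for MXD3) by leaving out 1 culture, and without replicate 3 of high glucose the changes were -1.62 and -1.37. In MDA-MB-175 both calls were lost in 1 fit of all 24 samples (adjusted p = 0.196 and 0.201), and that of MXD3 also without low glucose replicate 3 (adjusted p = 0.0518). MXI1, another antagonist, rose from 212 ± 9.04 to 502 ± 11.5 in ZR-75-30 (1.24; adjusted p = 1.03e-12) and by 0.67 in MDA-MB-175 (adjusted p = 0.00184), with 101 ± 3.95 and 107 ± 6.79 in HCC1500 (adjusted p = 0.612, or 0.183 without replicate 3).

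Of 12 genes of the thioredoxin system, which TXNIP inhibits, 2 rose and 3 fell in MDA-MB-175, 3 rose and 4 fell in ZR-75-30, and 1 rose in HCC1500 (3 rose and 7 fell without replicate 3). TXNRD1, the cytosolic thioredoxin reductase, rose in each line, from 592 ± 23.6 to 1318 ± 21.4 in MDA-MB-175 (log2 change 1.15; adjusted p = 1.32e-11), and by 0.28 in ZR-75-30 and 0.39 in HCC1500 (adjusted p = 6.18e-06 and 0.026, the latter lost in 11 alternatives, and 0.48 without replicate 3). PRDX3, the mitochondrial peroxiredoxin, fell by 0.28 and 0.15 in MDA-MB-175 and ZR-75-30 (adjusted p = 8.01e-05 and 0.00225, the latter lost in 1 fit of all 24 samples at 0.191), and its HCC1500 change was -0.29 (adjusted p = 0.15), or -0.42 without replicate 3 (adjusted p = 8.59e-09). PRDX5 rose by 0.23 in both (adjusted p = 0.0256 and 0.000788). Its MDA-MB-175 call was lost in 5 of 18 alternatives (1 fit of all 24 samples, 0.623, and without low glucose replicate 2 or high glucose replicate 1, 2 or 4, 0.0523 to 0.0756), and its ZR-75-30 call in 1 fit (0.506). In HCC1500 its sign turned from 0.22 (adjusted p = 0.7) to -0.17 without replicate 3 (adjusted p = 0.000722).

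Among 8 NEDD4-family ubiquitin ligases with a row of 9 listed, partners of the PPxY motifs of α-arrestins, 2 rose in MDA-MB-175, 5 rose and 2 fell in ZR-75-30, and 1 fell in HCC1500 (2 rose and 5 fell without replicate 3). NEDD4L rose by 0.17 in MDA-MB-175 and 0.50 in ZR-75-30 (adjusted p = 0.0258 and 2.07e-08) and SMURF1 by 0.22 and 0.32 (adjusted p = 0.00764 and 0.000917). The MDA-MB-175 call of NEDD4L was lost without low glucose replicate 1 or high glucose replicate 1 or 2 (adjusted p from 0.0646 to 0.0984), and that of SMURF1 in 1 fit of all 24 samples (0.137). In HCC1500 NEDD4L was lower, at -0.22 (adjusted p = 0.0689), and was called at -0.18 without replicate 3 (adjusted p = 0.000371), and SMURF1 was at 0.04 (adjusted p = 0.881), or 0.15 without replicate 3 (adjusted p = 0.0223). Of the 8 listed partners of TXNIP, 7 had a row and 4 rose in MDA-MB-175; 4 of 6 tested rose and 1 fell in ZR-75-30, and 1 of 5 tested fell in HCC1500 (2 rose and 2 fell without replicate 3). SLC2A1, the glucose transporter GLUT1 that TXNIP removes from the membrane, rose by 0.36 and 0.27 in MDA-MB-175 and ZR-75-30 (adjusted p = 0.000134 and 1.53e-05), and was 1937 ± 73.5 at low and 1793 ± 330 at high glucose in HCC1500 (-0.13; adjusted p = 0.516; without replicate 3, -0.25, adjusted p = 1.31e-06). PRKAA1, a catalytic subunit of the kinase AMPK that phosphorylates TXNIP, rose by 0.24 and 0.21 in the same lines (adjusted p = 0.00588 and 0.00215, lost in 1 fit of all 24 samples at 0.197 and 0.172), and was at 0.07 in HCC1500 (adjusted p = 0.81), or 0.24 without replicate 3 (adjusted p = 0.000281).

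Among 7 hexokinase and glucose 6-phosphate genes with a row, 3 rose and 1 fell in MDA-MB-175, 2 rose and 3 fell in ZR-75-30, and 1 fell in HCC1500 (6 fell without replicate 3). G6PC3, a glucose 6-phosphatase, fell by 0.21 and 0.18 in MDA-MB-175 and ZR-75-30 (adjusted p = 0.021 and 0.0316, lost in 5 and 8 alternatives) and went from 792 ± 28.8 to 569 ± 271 in HCC1500 (adjusted p = 0.147; without replicate 3, fell by 0.87, adjusted p = 9.23e-13). On the list of other arrestins, 4 genes had a row: ARRDC1, ARRB1, ARRB2 and ARRDC1-AS1 (listed under the older symbol C9orf37), which is antisense to ARRDC1 and not itself an arrestin gene. They had 1 call in MDA-MB-175 (ARRB1, a rise of 0.43; adjusted p = 8.42e-07), 1 in ZR-75-30 (ARRB2, a fall of 0.49; adjusted p = 0.00122) and no limma call with all HCC1500 cultures (ARRB1 alone had an unadjusted p under 0.05, of 0.0347). Without replicate 3, ARRDC1, ARRB1 and ARRB2 fell. These genes are named after their values were seen.

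**Figure D5:**
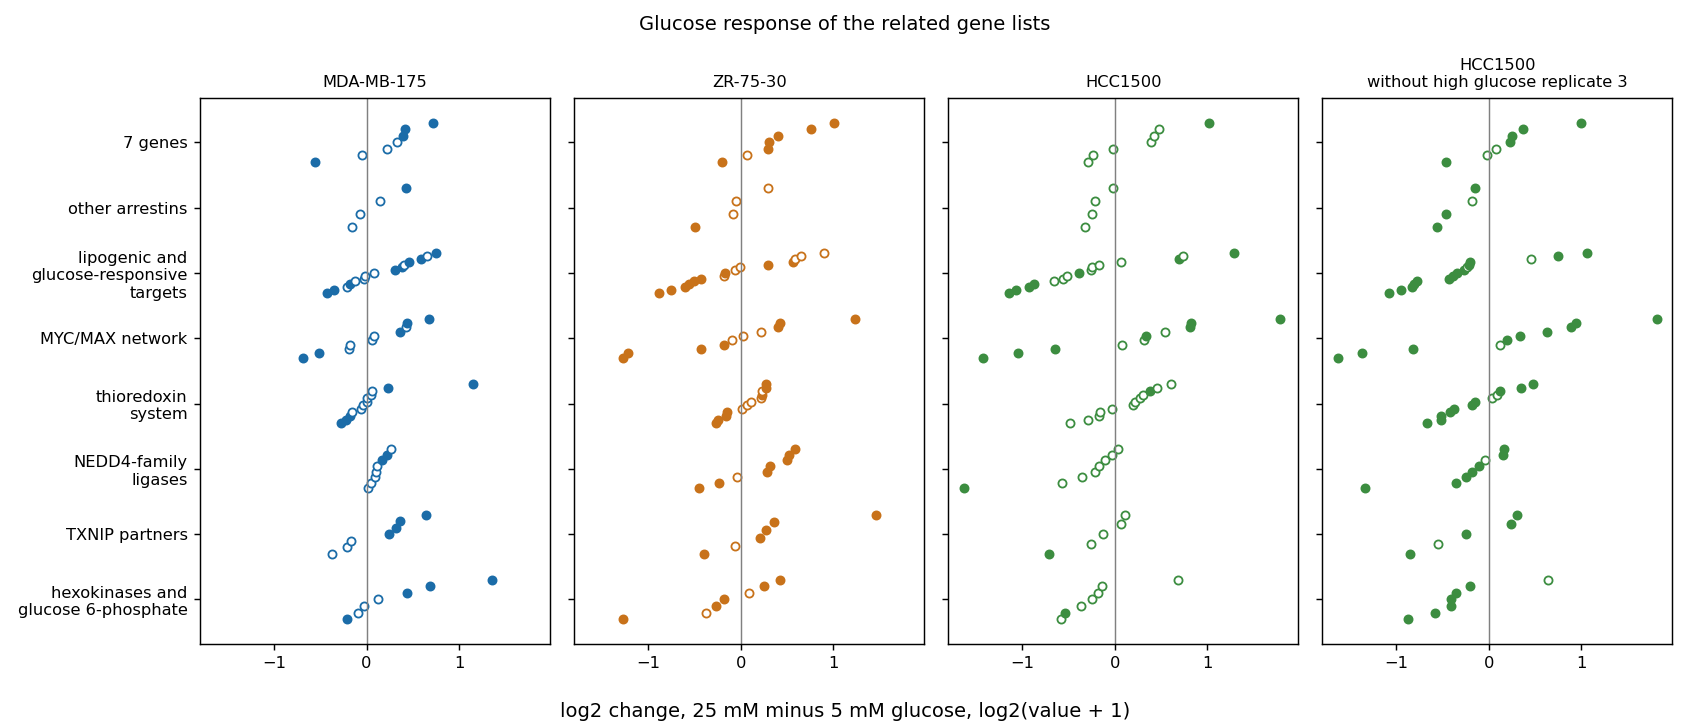
Log2 change from 5 to 25 mM glucose of each tested gene of the 7 and of the related lists, by line and for HCC1500 without high glucose replicate 3; filled points have a limma adjusted p under 0.05. Points lie on both sides of 0 in most lists, and leaving out replicate 3 raises the filled points among the 7 genes in HCC1500 from 1 to 5.

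The genes whose log2 values were most like TXNIP over the 24 samples were MAN1A1 (Pearson r = 0.991, and 0.995 over the 23 samples without HCC1500 high glucose replicate 3), OSGIN2, IFRD1, IMPA1 and IST1 (0.98 each), among 13309 genes whose mean reached 10. MAN1A1, an α-mannosidase of N-glycan processing, went from 292 to 463 in MDA-MB-175, from 25.2 to 62.9 in ZR-75-30 and from 432 to 1374 in HCC1500, all group means. For ARRDC4 they were LIF (0.97), PLA2G2F (0.96), PTPRH, PPP2CB and SPTSSB (0.95 each). LIF, a cytokine of the interleukin-6 family, had means at low and high glucose of 90.4 and 175 in MDA-MB-175, of 19.4 and 34.3 in ZR-75-30, and of 14.9 and 29.4 in HCC1500. These likenesses are descriptions over samples that fall into 6 groups and share the differences in level between lines.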

How the data were processed

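RNA-seq libraries of 24 cultures were analysed. The deposited table holds 1 normalized signal value per gene and sample, made by the authors from read counts. Their methods name Trimmomatic, TopHat with hg19 and Ensembl annotation, DESeq2 and edgeR, and the submitters' processing notes name edgeR and hg38. The methods describe CPM with TMM factors, under which column totals vary between samples. The deposited columns sum to 5559394 to 7594840, several times the total that CPM is scaled to. The factor behind them is not given in the sources used here. In each sample the values were whole multiples of what 1 read is worth (100.00% within 0.05 of a whole read), so reads were recovered for the count-based alternatives. The design had assumed another unit, and the test was chosen to fit these values.

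Values were tested as log2(value + 1) with limma-trend (limma 3.58.1, R 4.3.3), within each line over genes at 0.5 or more in at least 4 samples, with Benjamini-Hochberg adjustment over all genes and a threshold of 0.05. Differences between lines came from 1 model of 24 samples with 6 group means. Fold changes on this scale understate those of low genes. Alternatives were pseudocounts of 0.5 and 5, no filter, median-of-ratios and CPM rescaling, edgeR 4.0.16 and DESeq2 1.42.0 on recovered reads, sample weights, the replicate number as a block, 1 fit of all 24 samples, and leaving out each sample. The procedures were tested on simulated data in which no sample stood apart as HCC1500 high glucose replicate 3 does, so those runs do not bear on that culture.

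The 7 genes and the lists were chosen with earlier results of these data known. From each list up to 3 genes were named, those with the largest mean change among genes called with 1 sign in at least 2 lines, and for likeness the 5 genes with the highest correlation with TXNIP and with ARRDC4. Exon lengths and GRCh37 positions came from GENCODE release 44 mapped to that build (18183 gene IDs matched, 96.3%). A further 174 genes were matched by symbol. TXNIP was among them, because its deposited gene ID differs from that of the annotation, so its exon length and position rest on the symbol. No pair of samples within a group agreed within sampling noise. With 9140024 to 17998819 reads per sample, 3 reads corresponded to 0.953 to 2.29 normalized read counts.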

Additional observations from a re-analysis of the deposited data

Results flagged for a closer look

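In 10 of the 42 groups of 4 values (7 genes in 6 groups), 1 culture lay further from the others than Dixon's test allows at the 95% level, where chance alone gives about 1 in 20. HCC1500 high glucose replicate 3 accounted for 4 of them, with TXNIP at 5509.8, ARRDC2 at 247, MLXIP at 295 and MLX at 1065. For TXNIP it lay only 0.12 log2 units above the mean of the other 3, which were unusually close together. The others were TXNIP at 648 in ZR-75-30 low glucose replicate 1, ARRDC4 at 141 in MDA-MB-175 high glucose replicate 3 and ARRDC3 at 128 in ZR-75-30 low glucose replicate 3. In MDA-MB-175 they were MLXIP at 292 in low glucose replicate 4, MLXIPL at 28.9 in high glucose replicate 3 and MLX at 653 in low glucose replicate 1.

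The response to glucose differed between lines, by limma's test of the difference itself with all 24 samples, in 6 of 21 gene and line pairs. Of all genes, 11.2% were called for ZR-75-30 minus MDA-MB-175, 17.7% for HCC1500 minus MDA-MB-175 and 25.2% for HCC1500 minus ZR-75-30. For TXNIP the differences were 0.37 for ZR-75-30 minus MDA-MB-175, 0.63 for HCC1500 minus MDA-MB-175 and 0.26 for HCC1500 minus ZR-75-30, in log2 units. For ARRDC3 they were 0.36 for ZR-75-30 minus MDA-MB-175, a call lost in 23 of 33 alternatives, and 0.54 for HCC1500 minus MDA-MB-175. For MLXIPL it was -1.24 for HCC1500 minus ZR-75-30.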

How the results depend on the processing

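The TXNIP changes, response differences and level differences kept their direction and their side of the threshold under every alternative run. In MDA-MB-175, 4368 genes were called, against 2011 in 1 fit of all 24 samples. In HCC1500, 3350 were called, against 9436 with sample weights, 1964 with the replicate block, 5842 in 1 fit of all 24 samples and 2015 (without low glucose replicate 2) to 9504 (without high glucose replicate 3) on leaving out 1 sample. The HCC1500 change of ARRDC4 (0.39) passed the threshold at 0.44 with median-of-ratios rescaling, 0.46 with DESeq2, 0.39 with sample weights and 0.39 in 1 fit of all samples, and ranged from 0.33 to 0.47 on leaving out 1 sample. That of MLX (0.42) passed at 0.47 with median-of-ratios rescaling, 0.34 in CPM, 0.46 with edgeR, 0.48 with DESeq2, 0.25 with sample weights and 0.42 in 1 fit, and ranged from 0.25 to 0.50 on leaving out 1 sample. The sign turned in the following cases, none of them a called difference as reported. In HCC1500, ARRDC3 was 0.039 with median-of-ratios, 0.047 with edgeR, 0.066 with DESeq2 and 0.071 with sample weights (-0.066 to 0.076 on leaving out 1 sample), SMURF1 was -0.038 in CPM (-0.026 to 0.152), PRKAA1 was -0.002 in CPM (-0.022 to 0.245) and PRDX5 was -0.164 with sample weights (-0.175 to 0.37). The ARRDC4 response difference of HCC1500 minus MDA-MB-175 was 0.014 with median-of-ratios, 0.033 with edgeR, 0.043 with DESeq2 and 0.008 with sample weights (-0.083 to 0.061), that of HCC1500 minus ZR-75-30 was 0.019, 0.021 and 0.019 with the first 3 of these (-0.078 to 0.064), and that of ZR-75-30 minus MDA-MB-175 was 0.012 with edgeR, 0.025 with DESeq2 and 0.047 with sample weights (-0.078 to 0.052). With sample weights, the response difference of MLXIP for HCC1500 minus MDA-MB-175 was 0.032 (-0.333 to 0.022 on leaving out 1 sample), and for HCC1500 minus ZR-75-30 that of ARRDC2 was -0.081 (-0.077 to 0.267) and that of MLX -0.05 (-0.052 to 0.198). At high glucose, the level difference of ARRDC2 for HCC1500 minus MDA-MB-175 was -0.114 with sample weights (-0.125 to 0.22) and that of MLXIPL for ZR-75-30 minus MDA-MB-175 was 0.018 with median-of-ratios, 0.032 with edgeR and 0.025 with DESeq2 (-0.134 to 0.066). The level difference of ARRDC4 for HCC1500 minus ZR-75-30 was 0.234 at low and 0.192 at high glucose in CPM. The causes were not tested. The replicate numbers did not pair the samples (mean correlation of same-numbered deviations 0.036, 0.012 and 0.024 in the 3 lines, with 1, 1 and 2 of 4 numbers matching best), and with the replicate block 4525, 7542 and 1964 genes were called in the same lines, against 4368, 7290 and 3350 without it. MLXIPL in ZR-75-30 at low glucose rested on 16 to 22 reads per sample, which limits its fold change.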

Other observations

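Several genes of the same pathways rose in 1 line and fell in another, each passing limma's test within those lines, and their responses differed by limma's test of any difference between lines. They were chosen after their values were seen. HK2, the inducible hexokinase, rose in MDA-MB-175 (1287 ± 38.7, SD, n = 4, at low and 2067 ± 13.8 at high glucose) and ZR-75-30 (1042 ± 25.7 and 1247 ± 48.8), and fell from 752 ± 9.35 to 525 ± 82.0 in HCC1500 (565 ± 17.8 without replicate 3). The adjusted p was 1.96e-09, 2.46e-05 and 0.0149 within the lines and 6.48e-08 for the difference. BHLHE40, a circadian and hypoxia-responsive repressor, rose by 0.75 log2 units in MDA-MB-175 cells, rose by 0.57 in ZR-75-30 cells and fell by 0.39 in HCC1500 cells (adjusted p = 2.1e-07, 6.35e-09 and 0.00367, and 7.28e-11 for the difference). SCD, the stearoyl-CoA desaturase, rose by 0.31 in MDA-MB-175 and fell by 0.42 in ZR-75-30 and 0.87 in HCC1500 (0.77 without replicate 3). The adjusted p was 4.64e-05, 2.1e-07 and 0.00121, and 7.99e-08 for the difference.

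RGS16, a regulator of G protein signaling, went the other way. It fell from 392 ± 22.7 to 291 ± 7.99 in MDA-MB-175 and rose from 30.1 ± 4.11 to 77.8 ± 28.3 in HCC1500 (64.1 ± 9.02 without replicate 3). The adjusted p was 2.27e-05 and 0.00607, and 4.12e-06 for the difference.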
